A study of Mus musculus with 6 samples.

Results

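The transcripts described here are 10 genes that control the antioxidant transcription factor NRF2, make or recycle glutathione, or stand downstream of NRF2 as inducible targets. They were taken by name from the deposited expression table of 48709 genes, and all 10 names were found once. The regulators are Nfe2l2, Keap1, Bach1 and Bach2, the glutathione genes are Gclc, Gclm, Gss and Gsr, and the inducible targets are Hmox1 and Nqo1.

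The study sequenced RNA of invariant natural killer T (iNKT) cells, lipid-recognising T cells with a semi-invariant receptor, sorted from mouse spleen. The labels give 3 samples of genotype WT and 3 of genotype Gpx4 cKO, all in the resting state, and the comparison of these genotypes is the one the design implies. Gpx4 encodes the selenoenzyme that uses glutathione to reduce lipid hydroperoxides in membranes. The sources used here do not give the driver of the conditional deletion, the age of the mice or whether samples came from separate animals. The table names its 6 libraries by numbers 18 to 23, and 0 of these names occur in a label. No library could therefore be given a genotype, no WT against Gpx4 cKO difference was computed, and values are given by library.

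As background, NRF2, encoded by Nfe2l2, is held low by KEAP1, the adaptor through which a CUL3 ubiquitin ligase marks NRF2 for degradation. Oxidants and electrophiles modify KEAP1, after which NRF2 accumulates, pairs with small MAF proteins and binds antioxidant response elements in genes of glutathione synthesis, NADPH supply and haem breakdown. BACH1 occupies the same elements as a repressor until haem releases it, and BACH2 is its relative in lymphocytes, where it restrains effector differentiation. Because NRF2 is controlled largely through protein stability, its transcript level does not measure its activity.

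Total exon reads ranged from 903524 in library 21 to 10122187 in library 19, so a single read weighs most in library 21. Levels are given as CPM, exon reads scaled to a library of 1000000 with sizes corrected by TMM factors. On this scale the limit that 0 reads allow was 0.282 for library 19 and 3.62 for library 21. The most abundant of 15 iNKT cell markers were Cxcr6 (median 1014 CPM), Il2rb (885 CPM) and Cd3e (849 CPM). Zbtb16, which encodes PLZF, stood at 245 to 357 CPM and the invariant alpha segment Trav11 at 49.5 to 81.6 CPM, while the joining segment Traj18 had 21 reads in all and none in libraries 21 and 23. The 15 markers had their lowest sum, 4172 CPM, in library 23 and their highest, 5757 CPM, in library 19. Transcripts of other cells were present too. The 12 B cell markers, mostly Igkc and Ighm, summed to 1000, 1985, 4056, 3916, 4741 and 5247 CPM in libraries 18 to 23, and the 8 erythroid markers to 4.82, 5.27, 104, 70.0, 129 and 312 CPM. Gpx4, the gene deleted in the knockout, stood at 30.1, 3.20, 31.3, 14.5, 29.0 and 11.1 CPM in libraries 18 to 23 (adjusted p = 7.65e-53 by the chi-square test against counting error), and no library was assigned a genotype from these values. All intervals and limits quoted cover counting error only, since reads copied by PCR are not independent molecules.

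Promoter sequences from RefSeq (GRCm38.p6) were found for 7 of the 10 genes, as windows from 250 bases before to 50 bases after the annotated start. The core of the antioxidant response element, written TGACNNNGC and searched on both strands, was found in 2 of these 7 windows, those of Nfe2l2 and Gclm. The same letters occur in 12.4% of the 32851 promoter windows of the table. The AP-1 site TGAGTCA, which can overlap that core when the site reads on the opposite strand, was found in 0 of the 7 windows and in 5.20% of all windows. Both matches are shown, with the matched letters in capitals and each sequence printed 5′ to 3′ along the gene's own strand.
Nfe2l2, chr2:75704853-75704913, minus strand: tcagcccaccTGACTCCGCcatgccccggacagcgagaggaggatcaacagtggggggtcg
Gclm, chr3:122245397-122245457, plus strand: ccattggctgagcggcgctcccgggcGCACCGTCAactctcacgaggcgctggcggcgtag
The Nfe2l2 match lies 240 to 232 bases before the start and reads along the gene. The Gclm match lies 134 to 126 bases before the start and is the reverse complement of the core. A match of letters is a description of the window and not a measured binding site.

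Of the 10 genes, 7 had at least 200 exon reads in total and were tested for differences between libraries beyond counting error. All 7 passed (chi-square test over 9042 genes, Benjamini-Hochberg adjusted p at most 0.05), where 71.6% of all tested genes passed. The test carries no information on genotype, and it detects small differences in genes with many reads. The spread itself, taken as the highest over the lowest level, exceeded 2-fold for 3 of the 7 genes, Gclm, Bach2 and Bach1, where 26.2% of all tested genes exceeded it. The median log2 range was 0.72 over the 7 genes and 0.65 over all tested genes. Gss, Hmox1 and Nqo1 held 141, 60 and 4 reads in all and were not tested.

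**Figure D1:**
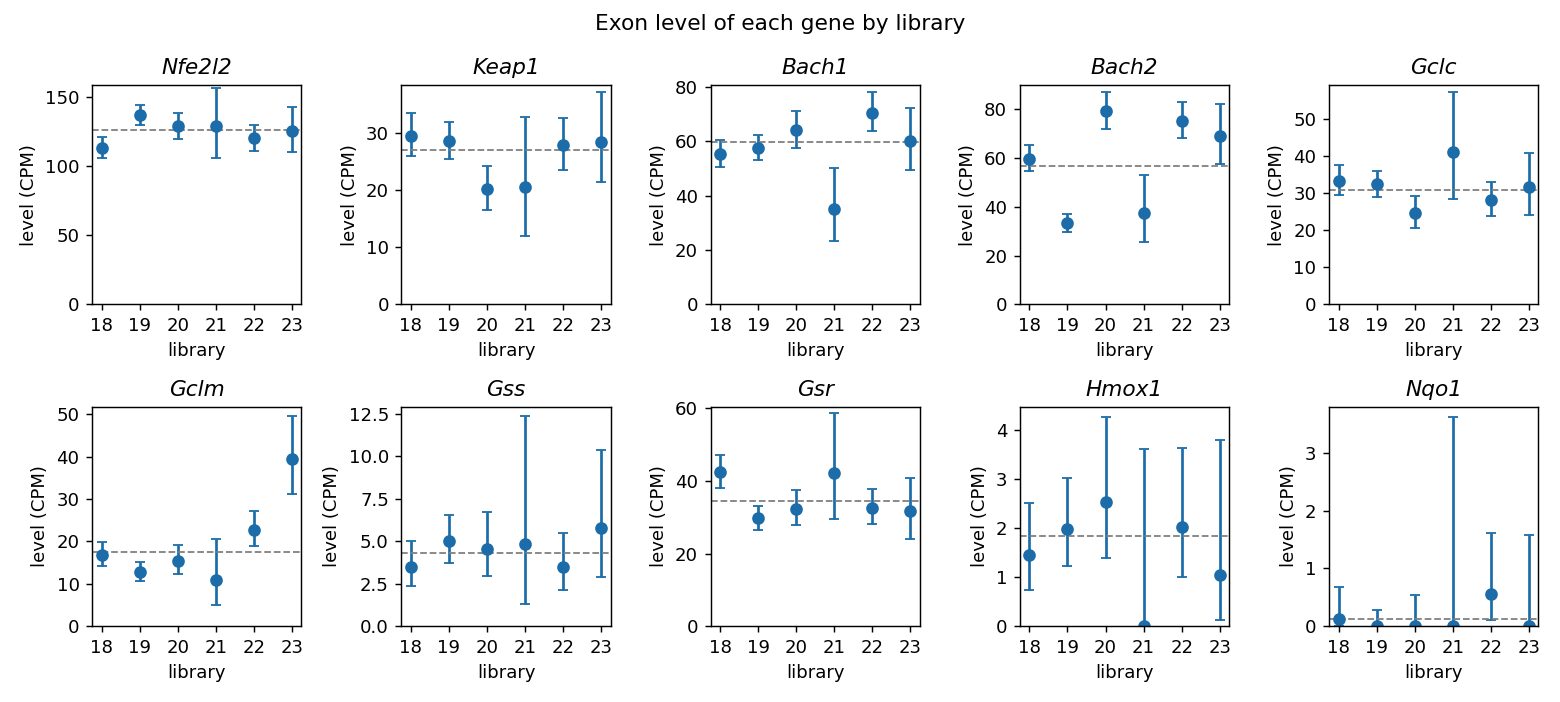
Exon level in CPM (vertical axis, from 0) of each of the 10 genes in libraries 18 to 23 (horizontal axis), with 95% exact Poisson intervals as bars (up to the limit of 3 reads where a library had none) and the level over all libraries as a dashed line. Nfe2l2 stays between 113 and 137 CPM, Bach2 is low in libraries 19 and 21, and Gclm is highest in library 23.

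Nfe2l2 was the most abundant of the 10 genes and had the narrowest range between libraries of those tested. The gene (ENSMUSG00000015839) lies on chromosome 2 of GRCm38 at 75675513 to 75704641, minus strand, with 3796 bases of exon. Its level was 113, 137, 129, 129, 120 and 125 CPM in libraries 18 to 23, from 939, 1454, 707, 107, 651 and 238 reads. The 95% exact Poisson interval was 106 to 121 CPM for library 18 and 130 to 144 CPM for library 19. Library 18 lay below and library 19 above the level over all libraries, and the intervals of the other 4 libraries held that level. The highest value was 1.21 times the lowest (95% interval 1.11 to 1.32), a narrower range than that of 91.9% of tested genes. The adjusted p was 0.000849 by the chi-square test, and it was 0.113 without library 18 and 0.145 without library 19. Counting error widens the range of genes with fewer reads, and Nfe2l2 had the most reads of the 10 genes, 4096. Its chi-square per degree of freedom, which grows with reads, was 4.55, against 2.78 for Keap1 and 2.68 for Gclc.

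On the authors' RPKM scale, which divides by exon length and by a larger read total, Nfe2l2 ranged from 14.0 in library 20 to 18.2 in library 19, so library 18 was not the lowest there. The genes whose profile over the 6 libraries lay closest to that of Nfe2l2, among 6312 genes of at least 20 CPM on average, were Wdr82, Dhx16, Heca, Supt20 and Ifi203. Their centred log2 levels differed from those of Nfe2l2 by a root mean square of 0.04 in each case, as a description with no test.

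Keap1, the brake on NRF2, was much less abundant. It lies on chromosome 9 at 21229730 to 21239332, minus strand (ENSMUSG00000003308, 4664 bases of exon). Its level was 29.5, 28.5, 20.2, 20.5, 27.9 and 28.5 CPM in libraries 18 to 23, from 245, 303, 111, 17, 151 and 54 reads. Library 20 (95% interval 16.6 to 24.3 CPM) was the only library whose interval lay apart from the level over all libraries, and library 21 had a similar value with a wide interval (12 to 32.8 CPM). The adjusted p was 0.0249 by the chi-square test, and 0.720 without library 20. Per kilobase of exon, Keap1 transcripts were 0.128 to 0.212 times those of Nfe2l2, with a median ratio of 0.177. This ratio was lowest in library 20 (95% interval 0.104 to 0.156) and highest in library 18 (0.184 to 0.245), and those intervals did not overlap.

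Bach1, the haem-sensitive repressor, lies on chromosome 16 at 87698945 to 87733346, plus strand (ENSMUSG00000025612, 6179 bases of exon). Its level was 55.3, 57.6, 64.2, 35.0, 70.5 and 60.1 CPM in libraries 18 to 23. Library 21, with 29 reads, was low (95% interval 23.4 to 50.3 CPM), library 22 was high (63.6 to 78.0 CPM), and the other 4 libraries held the level over all libraries within their intervals. Bach1 varied with an adjusted p of 0.000457 by the chi-square test. Its log2 range of 1.0 rested on library 21, without which it was 0.35. Bach1 to Nfe2l2 ratios per kilobase were 0.300, 0.259, 0.307, 0.167, 0.360 and 0.294, so the repressor transcript was always the rarer of the pair.

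Bach2 varied most clearly of the 7 genes. It spans 32238804 to 32586108 on chromosome 4, plus strand (ENSMUSG00000040270, 9940 bases of exon). Its level was 59.8, 33.2, 79.1, 37.4, 75.3 and 69.1 CPM in libraries 18 to 23. The 95% interval was 29.9 to 36.9 CPM for library 19 (353 reads), 71.8 to 86.9 CPM for library 20 (435 reads) and 25.4 to 53.1 CPM for library 21 (31 reads). Libraries 19 and 21 lay below the level over all libraries, and libraries 20, 22 and 23 above it. The highest value was 2.38 times the lowest (2.06 to 2.75), with an adjusted p of 3.62e-39 by the chi-square test, and 2.11 times the value in library 21, the next lowest.

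Intron reads of Bach2 showed the same libraries low. As reads per 1000000 intron reads, they were 909, 458, 916, 496, 862 and 729 in libraries 18 to 23, a 2.0-fold range. Introns took 90.1% to 93.3% of the reads on this gene. B cells also express Bach2, and in RNA from a bulk sort fewer cells of a type and less RNA per cell cannot be told apart. The 9 B cell markers other than immunoglobulin genes summed to 48.8, 23.5, 59.3, 64.0, 60.5 and 38.5 CPM in libraries 18 to 23, lowest in library 19 as Bach2 was but highest in library 21, where Bach2 was low. Of the 64.0 CPM in library 21, the shallowest, 22.9 CPM came from Pax5 alone, which stood at 2.26 to 7.75 CPM elsewhere. The part of B cell RNA in the Bach2 level was not tested.

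Within a library, where size correction drops out, the Bach2 to Bach1 ratio per kilobase was 0.672, 0.359, 0.766, 0.665, 0.664 and 0.714 in libraries 18 to 23. Library 19 stood apart, its 95% interval (0.314 to 0.409) lying below those of libraries 18, 20, 22 and 23. In library 21 both transcripts were low and their ratio lay among those of the other libraries, with a wide interval of 0.387 to 1.14.

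**Figure D2:**
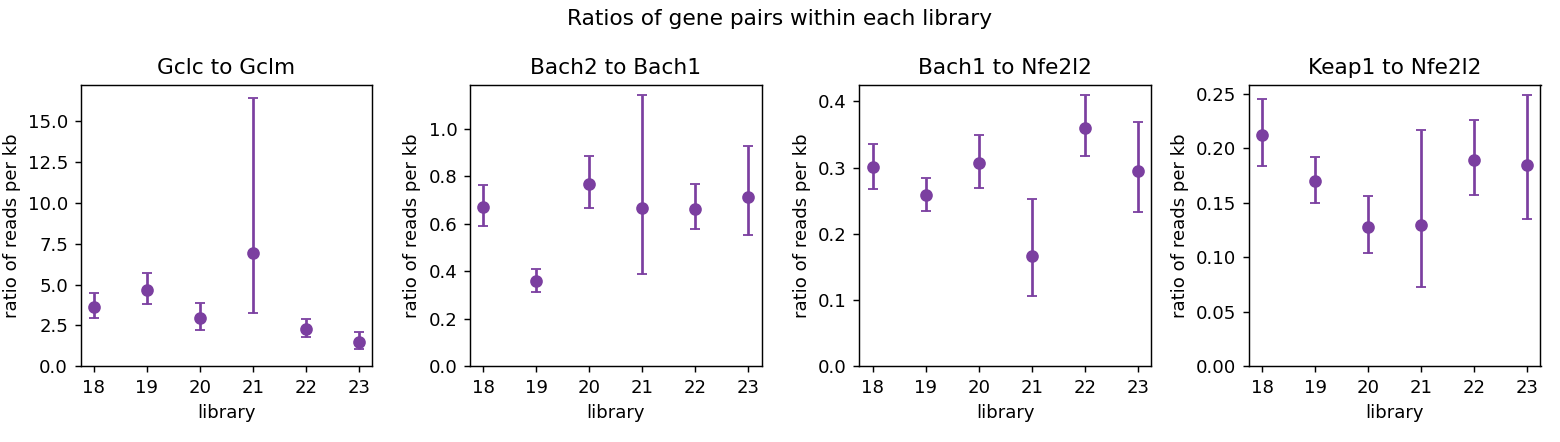
Ratios of exon reads per kilobase (vertical axis, from 0) for 4 gene pairs in libraries 18 to 23 (horizontal axis), with 95% intervals from the exact binomial interval of the 2 counts. The Bach2 to Bach1 ratio is lowest in library 19, at 0.359, and the Gclc to Gclm ratio is lowest in library 23, at 1.47.

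Glutamate-cysteine ligase, the rate-limiting enzyme of glutathione synthesis, is built from a catalytic subunit, GCLC, and a modifier subunit, GCLM, which eases feedback inhibition by glutathione. The catalytic gene Gclc lies on chromosome 9 at 77754535 to 77794485, plus strand (ENSMUSG00000032350, 3423 bases of exon). Its level was 33.4, 32.4, 24.7, 41.0, 28.1 and 31.6 CPM in libraries 18 to 23. Library 20 lay below the level over all libraries (95% interval 20.7 to 29.2 CPM), and no library lay above it, library 21 having only 34 reads (28.4 to 57.3 CPM). The log2 range of 0.72 was 0.43 without library 21. Gclc varied with an adjusted p of 0.0296 by the chi-square test, or 0.301 without library 20.

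Gclm, the modifier gene, had the widest spread of the 7. It lies on chromosome 3 at 122245557 to 122270732, plus strand (ENSMUSG00000028124, 6291 bases of exon). Its level was 16.9, 12.8, 15.5, 10.9, 22.7 and 39.5 CPM in libraries 18 to 23, from 140, 136, 85, 9, 123 and 75 reads. The interval in library 23, 31.1 to 49.6 CPM, lay above that of every other library, and library 22 (18.9 to 27.1 CPM) also lay above the level over all libraries. The highest value was 3.64 times the lowest (1.82 to 8.27), with an adjusted p of 1.55e-14 by the chi-square test, and a wider range was seen in 7.61% of tested genes. Without library 23 the range was 2.09-fold.

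The erythroid marker sum given above was also highest in library 23 and next in library 22. The sum of the 12 B cell markers had the same 2 libraries on top, but that of the 9 without immunoglobulin genes did not. In the other libraries the orders differed. Library 18 had the lowest erythroid sum, 4.82 CPM, yet its Gclm level of 16.9 CPM was above those of libraries 20 and 21. The part of erythroid or B cell RNA in the Gclm level was not tested. Gm17494, a processed transcript on the opposite strand, overlaps Gclm and held 99 exon reads in all. The use of strand in counting is not given, so reads of the pair cannot be told apart. The genes with the closest profiles to Gclm were Ctse, Pyroxd1, Pole, Etfb and Insl3, with root mean square differences of 0.21 to 0.27 in log2 level. Each of them was highest in library 23, as Pyroxd1 (72.2 CPM there) and Etfb (106 CPM there) show. This follows largely from their selection by closeness to the Gclm profile, and it is a description with no test.

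The subunit transcripts therefore stood in unequal proportion between libraries. Gclc to Gclm ratios per kilobase were 3.64, 4.65, 2.94, 6.94, 2.27 and 1.47 in libraries 18 to 23. Gclc was the more abundant per kilobase in all 6. The interval in library 23 (1.03 to 2.09) lay below those of libraries 18, 19, 20 and 21, and the interval in library 21 (3.26 to 16.5) was wide because only 9 Gclm reads were found there.

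Gss, which encodes glutathione synthetase and adds glycine in the final step, was scarce. It lies on chromosome 2 at 155563181 to 155592810, minus strand (ENSMUSG00000027610, 5915 bases of exon). Its level was 3.49, 4.99, 4.55, 4.83, 3.51 and 5.80 CPM in libraries 18 to 23, from 29, 53, 25, 4, 19 and 11 reads, and every interval held the level over all libraries, 4.33 CPM. A difference between libraries was not detectable at this depth, the ratio of highest to lowest being 1.66 with an interval of 0.748 to 3.42. Gss overlaps Acss2 on the opposite strand, a gene with 690 exon reads in all.

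Gsr encodes glutathione reductase, which restores reduced glutathione with NADPH. It lies on chromosome 8 at 33652523 to 33698163, plus strand (ENSMUSG00000031584, 2754 bases of exon). Its level was 42.5, 29.8, 32.4, 42.2, 32.7 and 31.6 CPM in libraries 18 to 23. Library 18 lay above (95% interval 38.2 to 47.2 CPM) and library 19 below (26.6 to 33.2 CPM) the level over all libraries. The adjusted p was 0.000265 by the chi-square test, and 0.399 without library 18. The sum of the 4 glutathione genes was lowest in library 20, at 77.1 CPM, and highest in library 23, at 109 CPM.

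The inducible targets were near the limit of detection. Hmox1, which encodes haem oxygenase 1, lies on chromosome 8 at 75093621 to 75100589, plus strand (ENSMUSG00000005413, 1751 bases of exon). It held 12, 21, 14, 0, 11 and 2 reads in libraries 18 to 23, or 1.45, 1.98, 2.55, 0, 2.03 and 1.05 CPM. The intervals of the 5 libraries with reads held the level over all libraries of 1.84 CPM, and the count of 0 in library 21 allows up to 3.62 CPM. Macrophages of the spleen are a known source of Hmox1. The 12 macrophage and monocyte markers other than Ccr2 and Ly6c2, which T cells also express, summed to 6.87, 8.10, 11.6, 13.3, 10.2 and 12.1 CPM in libraries 18 to 23. Only Cd68, Lyz2 and Vcam1, with 55, 66 and 71 reads in all, had reads in every library. The others lacked reads in at least 1 library. Csf1r, C1qb, Mrc1 and Adgre1 had 33, 19, 17 and 10 reads in all. Spic, C1qa, Cd163, C1qc and Fcgr1 had 7, 7, 5, 5 and 1. The part of macrophage RNA in the Hmox1 level was not tested.

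Nqo1, which encodes a quinone reductase and is a widely used readout of NRF2, lies on chromosome 8 at 107388225 to 107403206, minus strand (ENSMUSG00000003849, 1553 bases of exon). It held 1 exon read in library 18, 3 in library 22 and 0 in the other 4 libraries. The limits for those 4 zeros ran from 0.282 CPM (library 19) up to the 3.62 CPM of library 21. No fold was computed for Nqo1. Its intron reads numbered 9 in library 18 and 4 in library 22, more than its exon reads there. Intron reads could not be computed for the libraries with no exon read.

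On the authors' RPKM scale, which divides by exon length, the order by median level was Nfe2l2 (15.0), Gsr (5.64), Gclc (4.42), Bach1 (4.37), Bach2 (3.01), Keap1 (2.86), Gclm (1.15), Hmox1 (0.481), Gss (0.337) and Nqo1 (listed at 0 in 4 libraries). Of the 9 neighbouring pairs in this order, 5 kept their order in all 6 libraries. Nfe2l2 lay above Gsr with no overlap of their ranges, and their counting intervals lay apart in all 6 libraries. The listed values of Gclm and Hmox1 did not overlap either, but Hmox1 is listed at 0 in library 21. The counting intervals of Gclm and Hmox1 lay apart in only 3 libraries. Gclc and Bach1 changed places in libraries 20, 22 and 23, Bach2 and Keap1 in libraries 18, 19 and 21, and these neighbours do not differ beyond their spread. By median CPM per kilobase Bach1 (9.53) lay above Gclc (9.35), and the other genes kept their places. Keap1 lay above Gclm in 5 libraries, library 23 being the exception.

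**Figure D3:**
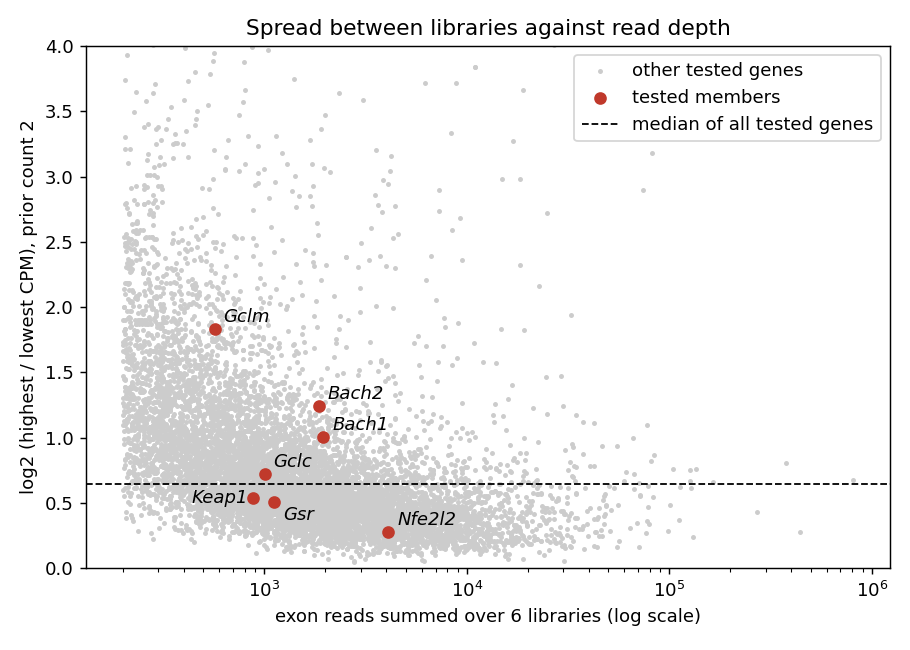
Log2 of the highest over the lowest CPM with a prior count of 2 (vertical axis) against exon reads summed over the 6 libraries (horizontal log axis) for 9042 tested genes in grey and the 7 tested genes described here in red. Nfe2l2 sits at 0.27, below the median of 0.65 (dashed line), Gclm at 1.83, and 139 genes above 4 are not shown.

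Intron reads, recovered from the deposited intron fraction, gave a measure that needs no library size. Of the 10 genes, 6 had enough reads in each library for a chi-square test of intron against exon reads, and all 6 passed (adjusted p at most 0.05), where 74.7% of 7227 tested genes passed. For Nfe2l2 the intron share was 49.5%, 37.5%, 43.6%, 44.6%, 40.6% and 45.5% in libraries 18 to 23 (adjusted p = 7.61e-12, chi-square test). The 95% exact binomial interval was 47.2% to 51.8% for library 18 and 35.5% to 39.5% for library 19. The library with the lowest exon level thus had the highest intron share, and the library with the highest exon level the lowest. Part of this relation is built in, since exon reads enter both values.

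Keap1 held the most unusual value. Its intron share was 18.3%, 23.1%, 21.8%, 20.1% and 20.6% in libraries 18, 19, 20, 22 and 23, but 75.4% in library 21 (63.5 to 84.9), from 52 intron and 17 exon reads. In reads per 1000000 intron reads, Keap1 introns stood at 66.5 in library 21 and at 5.58 to 9.90 elsewhere. The adjusted p of 2.63e-20 (chi-square test) rested on that library, and without it was 0.674. Gm16754, a processed transcript overlapping Keap1 on the opposite strand, held 2 exon reads, both in library 18.

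Gsr introns took 49.4% of its reads in library 18 and 49.6% in library 22, and 54.5% to 61.1% in the other 4 libraries (adjusted p = 0.000132, chi-square test). Bach1 shares ran from 43.7% to 54.0% (adjusted p = 0.0493), and without library 18, 20 or 23 the call was lost (adjusted p = 0.0759, 0.0808 and 0.301, chi-square test). Gclc shares ran from 55.3% in library 21 to 73.4% in library 20 (adjusted p = 0.0132), and the call was lost without library 21 (adjusted p = 0.0810) or library 20 (0.0860, chi-square test). For Gclm, too few intron reads in library 21 barred the test over 6 libraries. Without that library its shares of 31.0%, 33.3%, 32.5%, 18% and 19.4% in libraries 18, 19, 20, 22 and 23 differed (adjusted p = 0.00628, chi-square test). Exon reads enter the share, so a high exon level lowers it by construction. The intron level itself was 8.23, 7.40, 7.38, 7.67, 5.98 and 10.97 reads per 1000000 intron reads in libraries 18 to 23, highest in library 23 as the exon level was and lowest in library 22. These levels rest on only 63, 68, 41, 6, 27 and 18 intron reads. No interval was computed for them, and their differences were not tested.

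**Figure D4:**
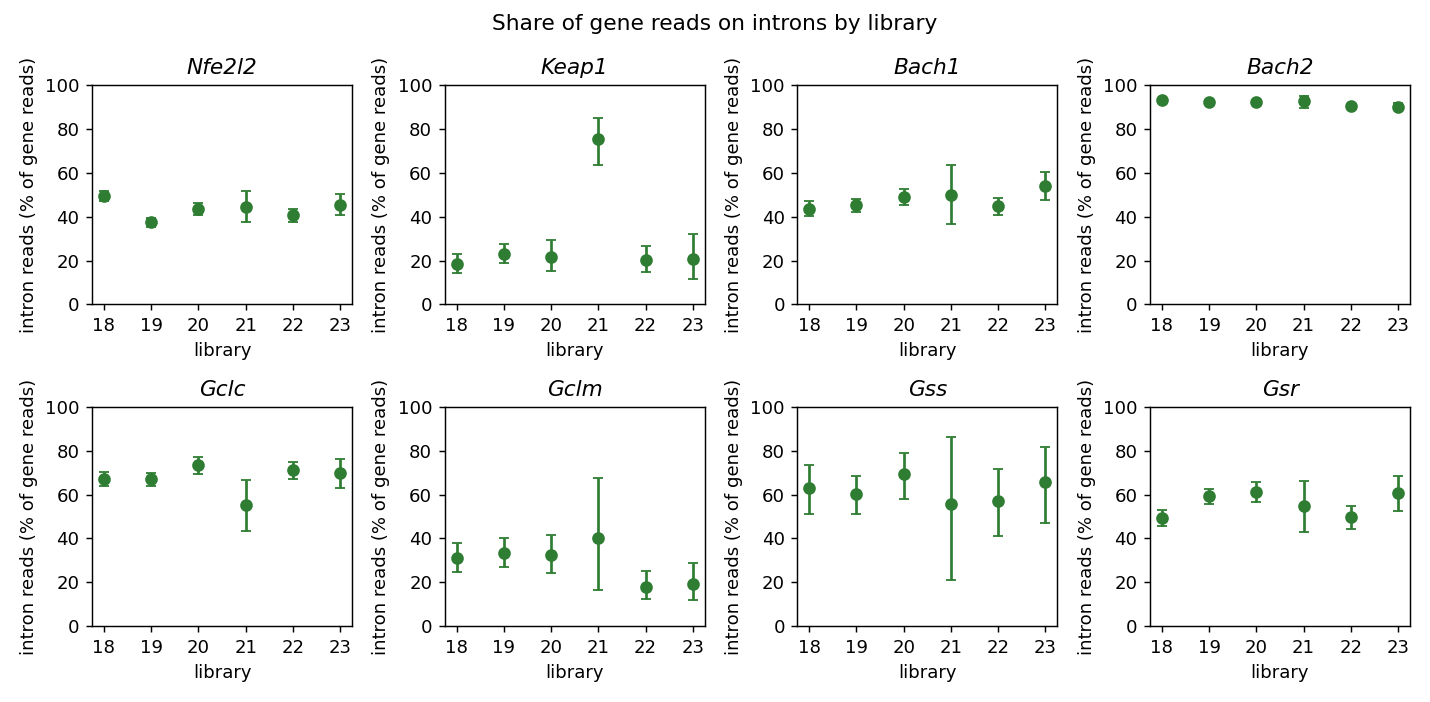
Share of each gene's reads that fall on introns, in percent (vertical axis, 0 to 100), for 8 genes in libraries 18 to 23 (horizontal axis), with 95% exact binomial intervals. Keap1 stands at 75.4% in library 21 and at 18.3% to 23.1% elsewhere, and Bach2 stays above 90% throughout.

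Other genes of the pathway were described by lists. Of 16 NRF2 partners and turnover genes, 15 were tested and 10 varied, and 2 exceeded 2-fold. The most abundant were Cul3 (median 243 CPM), the ligase scaffold that KEAP1 recruits, Trim21 (143 CPM), Sqstm1 (133 CPM), whose product p62 sequesters KEAP1, and Gsk3b (125 CPM), a kinase that primes NRF2 for a KEAP1-independent ligase. Gsk3b did not pass (adjusted p = 0.741, chi-square test). Among the small MAF partners, Mafk was the most abundant, at 37.8 to 53.1 CPM, and Maff was lowest in library 19 (2.26 CPM) and highest in library 20 (10.9 CPM).

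Of 26 other NRF2 targets, 17 were tested and 15 varied, with 3 over 2-fold. Library 19 held their lowest sum, 1491 CPM, and library 18 their highest, 1787 CPM, and the ferritin heavy chain gene Fth1 (listed as Fth1_2, median 570 CPM), Txnrd1 (238 CPM), Tkt (162 CPM) and Prdx1 (128 CPM) led. Srxn1, the sulfiredoxin gene, had a median of 0.916 CPM, and stood at 2.07 CPM in library 19, where 0 reads would allow 0.282 CPM. The cystine transporter gene Slc7a11 had 26 reads in all, at 0.241, 0.282, 2.0, 0, 0.185 and 4.74 CPM in libraries 18 to 23, highest in library 23, where 0 reads would allow 1.58 CPM and where Gclm was also highest. Me1 had 6 reads in all. These genes were below the read minimum and were not tested. The 28 genes of glutathione use, transfer and turnover had sums of 585 to 671 CPM. Of these genes 19 were tested, 17 varied and 7 exceeded 2-fold. Abcc1, an exporter of glutathione conjugates, had a median of 96.9 CPM, Esd 73.0 CPM, Glrx3 53.1 CPM and Slc25a39, a mitochondrial glutathione importer, 50.3 CPM. Of 18 genes of haem breakdown and haem handling, 13 were tested, 7 varied and 3 exceeded 2-fold. Hmox2, the constitutive haem oxygenase, stood at 29.1 to 39.1 CPM, and Pgrmc1 (median 72.9 CPM), Fech (36.6 CPM) and Ppox (26.3 CPM) were the other leading members. These counts stand beside the 71.6% of all tested genes that varied and the 26.2% that exceeded 2-fold.

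Markers of other cells were otherwise low. The 8 neutrophil markers summed to at most 4.22 CPM and 4 of them had no read, and the 7 dendritic cell markers summed to at most 18.1 CPM. The 9 conventional T cell markers, led by Cd4 (median 400 CPM), Lef1 (339 CPM) and Tcf7 (204 CPM), which iNKT cells also express, summed to 980 to 1205 CPM, with Cd8a at 1 read, Cd8b1 at 44 reads and Foxp3 at 255 reads in all.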

How the data were processed

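RNA of sorted splenic iNKT cells was isolated with a NucleoSpin RNA XS kit and made into libraries with a QIAseq UPXome kit, per the labels' protocols. The submitters' processing notes name the builds GRCm38 and mm10. For the aligner, counting tool, annotation release and strand setting, nothing is given in the sources used here. Per the file headers, the authors deposited 1 table of 6 libraries with whole read counts on exons, RPKM values (scaled by exon length and depth), the fraction of each gene's reads on introns and the exon length. A further 11 columns of values per library were not used. The labels cover 3 WT and 3 Gpx4 cKO samples, but library names match no label, so the edgeR quasi-likelihood test of genotype in the design was not run.

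CPM used TMM factors from edgeR 4.0.16 (R 4.3.3) on 9510 genes kept by filterByExpr. Intron reads were computed as exon reads times the fraction over 1 minus the fraction, for genes with at least 1 exon read, and 99.99% were whole within 0.01. Counts of genes with at least 200 reads were tested against library sizes by a chi-square test with 5 degrees of freedom, and intron against exon reads by a chi-square test needing expected counts of at least 5, both Benjamini-Hochberg adjusted over all genes at 0.05. Poisson and binomial intervals are exact at 95%, except that a count of 0 is taken to allow 3 reads. The log2 range used a prior count of 2. On simulated counts for 9042 genes, the exon test called 94 of 100 genes changed 2-fold in 1 library and 19 of 8842 unchanged genes, under counting error alone. On simulated reads for 7227 genes, the intron test called 71 of 100 genes with 2-fold odds in 1 library, 91 of 100 with 4-fold odds and 6 of 7027 unchanged genes.

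The genes and gene lists (7 marker lists of cell types and 4 lists of NRF2, glutathione and haem genes) were chosen with earlier results of these data known. Named genes were the 10 genes, the most abundant members of each list (4 of a pathway list, up to 3 of a marker list), and the 5 closest profiles to Nfe2l2 and to the gene with the widest range; others were named after their values were seen. Alternatives were other library sizes (total reads, DESeq2 1.42.0 size factors), read minimums, prior counts, the RPKM scale and leaving out each library.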

Additional observations from a re-analysis of the deposited data

Results flagged for a closer look

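In each series of library values, the highest or lowest library was compared with its nearest neighbour, and the gap was set against the whole range (Dixon's critical value 0.625 for 6 values). The Hmox1 intron series had no value for library 21 and were held to the higher critical value for fewer values. Of 32 series, 5 held a library that stood apart. The rate of about 1 in 20 by chance holds for independent series of equally precise values. It does not apply here, since series share reads (as the 2 Keap1 intron series do) and libraries differ in depth. The 6 libraries hold samples of both genotypes in an unknown arrangement. The Keap1 intron share of 75.4% in library 21 had a gap of 0.916 of the range, and the Keap1 intron level of 66.5 reads per 1000000 intron reads in the same library a gap of 0.929. The Gclc intron share of 55.3%, also in library 21, was the lowest of its series. The Bach2 to Bach1 ratio of 0.359 in library 19 was the lowest of its series, with a gap of 0.749 of the range. The Nqo1 level of 0.554 CPM in library 22 was the highest of its series, and it rests on 3 reads. The counts of 0 in libraries 21 and 23 allow up to 3.62 and 1.58 CPM, so this flag does not set library 22 apart from them.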

How the results depend on the processing

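No paired analysis was possible because the library columns carry neither a genotype nor a replicate number, and the genotype fits with edgeR and DESeq2 were not run for the same reason. All 7 tested genes varied beyond counting error with total exon reads, with DESeq2 size factors and with lower read minimums, where 2 and then all 3 of the remaining genes (Gss and Hmox1, then Nqo1) were tested and did not pass. These settings called 53.9% to 73.5% of all tested genes. Leaving out each library left 5 to 7 of the 7, where 61% to 68.4% of all tested genes were called. The median log2 range was 0.51 to 0.72 when each library was left out, and 0.69 to 0.79 under the other settings. The number of genes over 2-fold was 2 to 3 (15.2% to 27.1% of all tested genes), Bach1 dropping below 2-fold without library 21 (log2 range 0.35), without library 22 (0.87) and with DESeq2 size factors (0.997). Median ratios of the 4 gene pairs moved by less than their spread. Intron share calls numbered 4 to 6 when each library was left out (63.7% to 70.8% of all tested genes), among 6 genes tested, or 8 without library 21. The order by level, taken on counts per kilobase, kept 4 neighbouring pairs in all libraries against 5. Over all settings 242 of 254 recomputed values were counted as unchanged. These include calls that were kept and ranges or ratios that stayed within their interval or spread. They also include counts of genes or pairs that shifted modestly, such as 7 to 5 genes called. Ratios on the RPKM scale were among them too, and these equal the main ratios by construction. Of the rest, 11 calls were lost, all with a library left out, and 1 range left its 95% interval (Bach1 without library 21). Within their intervals, the log2 range of Gclm fell from 1.83 to 1.04 without library 23 and that of Gclc from 0.72 to 0.43 without library 21. Depth limits Gss, Hmox1 and Nqo1 in every library and all genes in library 21.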
